A study of Mus musculus with 12 samples.

Results

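Alveolar type 1 (AT1) cells were followed through 8 genes with established use as their markers, *Aqp5*, *Pdpn*, *Hopx*, *Ager*, *Rtkn2*, *Clic5*, *Akap5* and *Emp2*, chosen by symbol after Ensembl gene identifiers were matched to mouse symbols. All 8 were present among the 16152 genes of the deposited count table and among the 51825 genes of the deposited table of normalised counts (CPM). RNA came from whole lungs of C57BL/6 mice with no treatment or genetic change, before birth (embryonic days E15.5 and E18.5) and after it (postnatal days P5 and P8), with 3 replicates at each time-point and 12 libraries in all. Both sexes were sampled, and the replicates of a time-point were taken from the same litter, so litter and time-point cannot be told apart and the spread between replicates is the spread within a litter. Reads counted on genes ranged from 41337443 to 53901957 per library.

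AT1 cells are the very thin, flat epithelial cells that cover most of the gas exchange surface of the alveolus, and they lie against the capillary endothelium across a shared basement membrane. In the embryo they arise with the cuboidal, surfactant-producing alveolar type 2 (AT2) cells from progenitors at the distal tips of the branching airways. Cells that take the AT1 fate flatten and spread, and their maturation continues after birth as the alveoli are divided by new septa.

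A level is given as CPM, the reads of a gene per 1000000 mapped reads of its library, and a change as a log2 fold change (1 is a doubling) from edgeR's quasi-likelihood fit of the counts of all 12 libraries over 15994 genes. A gene was called when its log2 fold change was beyond 1 in either direction and its false discovery rate (FDR, Benjamini-Hochberg over all genes tested) was under 0.05. Because whole lung was sequenced, fewer cells of a type and less RNA per cell cannot be told apart at any of the results that follow.

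The first group holds proteins of the cell surface. *Aqp5* (ENSMUSG00000044217, mm10 chromosome 15, 99590782 to 99594829, + strand) encodes a water channel of the apical membrane. Replicates 1, 2 and 3 of E15.5 held 0.662, 1.59 and 1.14 CPM, those of E18.5 held 1.23, 1.49 and 0.824 CPM, those of P5 164, 162 and 148 CPM, and those of P8 162, 142 and 183 CPM. The embryonic libraries overlapped with each other, the postnatal libraries overlapped with each other, and every postnatal library lay far above every embryonic one. The embryonic values rest on 41 to 81 reads per library at E15.5 and 45 to 78 at E18.5.

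*Pdpn* (ENSMUSG00000028583, chromosome 4, 143267431 to 143299564, - strand) encodes podoplanin, a mucin-type membrane glycoprotein. Its level was 27.7, 26.4 and 22.0 CPM in the E15.5 replicates, 29.8, 29.1 and 24.1 CPM in those of E18.5, 65.7, 68.8 and 55.4 CPM in those of P5, and 67.5, 67.7 and 83.0 CPM in those of P8. As with *Aqp5*, the libraries fell into an embryonic and a postnatal group that did not overlap, although the gap was much smaller. Podoplanin is also made by lymphatic endothelial and mesothelial cells, so their marker lists were set beside it. The summed level of 6 lymphatic endothelial genes ran, by library, from 188 to 205 CPM at the first time-point, 211 to 222 at the second, 378 to 422 at P5 and 286 to 347 at P8. That of 5 mesothelial genes ran from 86.5 to 118, 49.6 to 61.6, 132 to 207 and 524 to 546 CPM. Both sums were higher at P5 than at E18.5 in every library, but their members went both ways. Of the lymphatic genes 3 were called higher and 1 lower over that interval, with *Lyve1* at 1.55 and *Mmrn1* at -1.12 (edgeR FDR = 5.5e-08 and 1.0e-06). Of the mesothelial genes 2 were called higher and 1 lower, with *Msln* at 4.27 and *Wt1* at -1.15 (edgeR FDR = 8.1e-07 and 5.5e-04). Of all genes tested 17.5% were called higher and 9.34% lower, and nothing is read from the small counts of these 2 lists. The part of these cells in the *Pdpn* values was not tested.

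*Ager* (ENSMUSG00000015452, chromosome 17, 34597862 to 34600936, + strand) encodes the receptor for advanced glycation end-products, which in the lung sits mostly on the basal membrane of AT1 cells. The E15.5 replicates gave 46.4, 38.3 and 43.8 CPM, the E18.5 replicates 88.0, 102 and 59.0 CPM, the P5 replicates 1124, 1072 and 1024 CPM, and the P8 replicates 1106, 998 and 1285 CPM. Each E18.5 library was above each E15.5 library, and the P5 and P8 libraries overlapped at levels far above both.

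*Emp2* (ENSMUSG00000022505, chromosome 16, 10281749 to 10313968, - strand) encodes a tetraspan protein of epithelial membranes. Its E15.5 replicates were at 80.6, 82.1 and 77.5 CPM, its E18.5 replicates at 173, 179 and 123 CPM, its P5 replicates at 1235, 1271 and 1178 CPM, and its P8 replicates at 992, 930.4 and 1169 CPM. It was the one gene of the 8 whose P5 and P8 libraries did not overlap, with all 3 P8 libraries lower, as held for 16.3% of all genes tested.

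The second group holds proteins that act beneath the membrane. *Clic5* (ENSMUSG00000023959, chromosome 17, 44188584 to 44280172, + strand) encodes a chloride intracellular channel family protein found with the actin cortex. The replicates held 19.2, 18.2 and 16.3 CPM for E15.5, 50.9, 61.6 and 33.7 CPM for E18.5, 462, 428 and 446 CPM for P5, and 408, 394 and 473 CPM for P8. Its time-points formed 3 separate steps, since the P5 and P8 libraries overlapped.

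*Akap5* (ENSMUSG00000021057, chromosome 12, 76324891 to 76334153, + strand) encodes a scaffold that anchors protein kinase A and other signalling enzymes near the membrane. Its level was 67.9, 62.6 and 78.4 CPM in the E15.5 replicates, 108, 91.8 and 82.2 CPM in the E18.5 replicates, 434, 442 and 431 CPM in the P5 replicates, and 354, 348 and 455 CPM in the P8 replicates. The E18.5 libraries were above the E15.5 libraries by a narrow margin, and P8 replicate 3 lay above every P5 library while the other P8 replicates lay below them.

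*Rtkn2* (ENSMUSG00000037846, chromosome 10, 67979570 to 68059740, + strand) encodes rhotekin 2, an intracellular signalling protein. The values were 13.1, 12.05 and 13.5 CPM for the E15.5 replicates, 12.5, 10.99 and 16.3 CPM for the E18.5 replicates, 108, 111 and 101 CPM for the P5 replicates, and 88.8, 86.3 and 113 CPM for the P8 replicates. The libraries of the 2 embryonic time-points overlapped, as did those of the 2 postnatal time-points.

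*Hopx* (ENSMUSG00000059325, chromosome 5, 77086988 to 77115121, - strand) encodes a small homeodomain protein that does not bind DNA and works as a co-regulator of transcription. Its E15.5 replicates held 11.5, 12.1 and 10.3 CPM, its E18.5 replicates 28.3, 25.4 and 14.9 CPM, its P5 replicates 102, 108 and 109 CPM, and its P8 replicates 109, 102 and 108 CPM. Each E18.5 library exceeded each E15.5 library, and P5 and P8 could not be told apart by their ranges. Cardiac muscle also expresses *Hopx*, and the summed level of 7 cardiac muscle genes was 1184, 1485 and 60.1 CPM in the E15.5 replicates and 58.1 to 409 CPM elsewhere. *Hopx* differed among the E15.5 replicates by less than 2 CPM, at 10.3 CPM in the replicate where the cardiac sum was lowest and 12.1 CPM where it was highest.

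**Figure D1:**
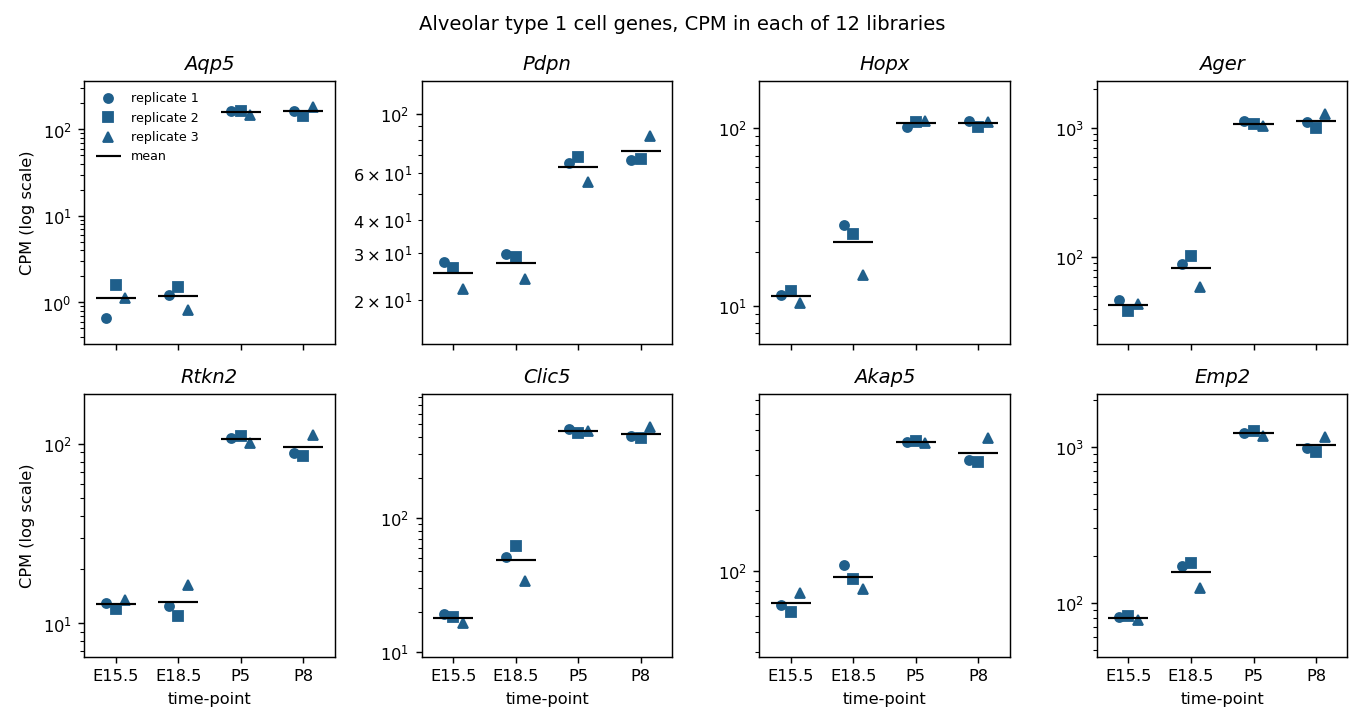
CPM of each gene (log axis, its range set separately for each gene) in the 3 replicates of each time-point, with marker shape for the replicate number and a line at the mean. All 8 genes stand on a higher plateau at P5 and P8 than at E15.5 and E18.5, from 158 against 1.18 CPM for *Aqp5* to 63.3 against 27.7 CPM for *Pdpn* (means at P5 and E18.5).

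The sum of the 8 genes went from 261 ± 7.02 CPM (SD, n = 3) and 449 ± 82.2 CPM at the embryonic time-points to 3616 ± 109 CPM at P5, and was 3408 ± 413 CPM at P8. For a comparison between genes, CPM was divided by the exon length of each gene in kilobases. *Ager* was the highest of the 8 by this measure at every time-point, with 20.01 ± 1.92 and 38.8 ± 10.3 CPM per kilobase before birth and 501 ± 23.3 (P5) and 528 ± 67.7 (P8) after it, and its libraries did not overlap with those of the next gene at any of them.

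*Aqp5* was the lowest at E15.5 and E18.5, at 0.435 ± 0.179 and 0.455 ± 0.130 CPM per kilobase, and took the fifth place at P5 with 60.8 ± 3.25. *Pdpn* moved the other way, from the second place at E15.5 with 14.0 ± 1.65 CPM per kilobase to the seventh at P5 with 34.8 ± 3.86. *Emp2* took the second place from E18.5 on. At E15.5 the order below *Ager* was *Pdpn*, *Akap5*, *Emp2*, *Hopx*, *Rtkn2*, *Clic5* and *Aqp5*, in which *Akap5* overlapped with *Emp2* and *Rtkn2* with *Clic5*.

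At E18.5, *Emp2*, *Pdpn*, *Hopx* and *Akap5* followed *Ager*, each overlapping with the next in that order, and *Clic5*, *Rtkn2* and *Aqp5* stood apart below them. At P5 the order was *Ager*, *Emp2*, *Hopx*, *Akap5*, *Aqp5*, *Clic5*, *Pdpn* and *Rtkn2*, with overlap only between *Akap5* and *Aqp5*. At P8 the genes from *Hopx* to *Pdpn* each overlapped with the next, in the order *Hopx*, *Aqp5*, *Akap5*, *Clic5* and *Pdpn*, and *Rtkn2* was again the lowest, at 17.3 ± 2.64 CPM per kilobase.

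**Figure D2:**
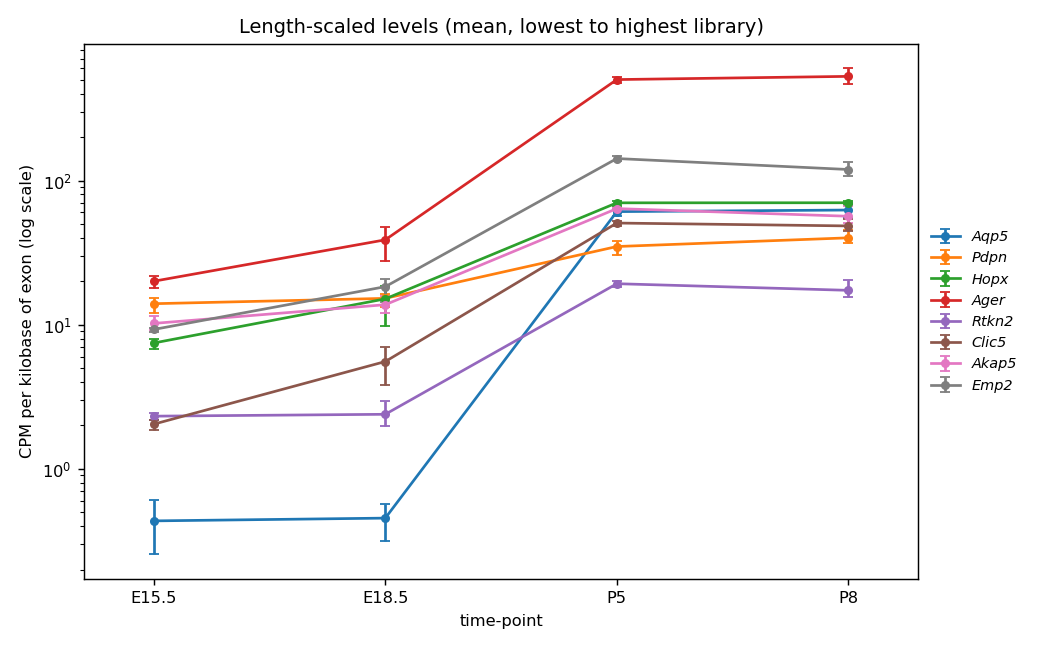
Level of each gene per kilobase of exon (log axis) at the 4 time-points, where points are means of 3 replicates and bars run from the lowest to the highest library. *Ager* leads throughout, and *Aqp5* climbs from the lowest place (0.455 at E18.5) into the middle of the group (60.8 at P5).

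The first comparison asked what changed in the last days before birth, from E15.5 to E18.5. Of the 8 genes, 5 were past the FDR cutoff, all of them upward, and whether they differed from the other 3 was not tested. *Clic5* rose by 1.45 on the log2 scale (a fold of 2.73, 95% interval 1.08 to 1.82 on the log2 scale, edgeR FDR = 5.9e-04) and *Hopx* by 1.02 (a fold of 2.03, interval 0.64 to 1.41, edgeR FDR = 0.0030). These 2 of 8 genes were called higher, where 1.59% of all genes tested were. *Emp2* rose by 0.99 (edgeR FDR = 8.6e-04), *Ager* by 0.96 (edgeR FDR = 0.0030) and *Akap5* by 0.44 (edgeR FDR = 0.025), past the FDR cutoff but short of the cutoff on the fold change. With each library scaled to 8 pan-epithelial genes, *Akap5* was at 0.24 (edgeR FDR = 0.19). By the FDR alone 5 of 8 genes had risen, where 11.6% of all genes had.

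*Aqp5*, *Pdpn* and *Rtkn2* were not past the FDR cutoff over the same days. Their log2 fold changes were 0.09 (95% interval -0.54 to 0.72, edgeR FDR = 0.85), 0.13 (interval -0.14 to 0.40, edgeR FDR = 0.48) and 0.05 (interval -0.25 to 0.34, edgeR FDR = 0.83). All 3 intervals left out a doubling, and that of *Aqp5* overlapped with those of *Ager*, *Emp2*, *Hopx* and *Akap5*. The median log2 fold change of the 8 genes was 0.70, against -0.01 over all genes tested. For 5 of 8 genes every E18.5 library was above every E15.5 library, as it was for 18.3% of all genes.

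The number of called genes moved with single libraries, and no share over all genes is given for these fits. *Hopx* fell to 0.83 without E18.5 replicate 1, 0.95 without E18.5 replicate 2 and 0.97 without E15.5 replicate 3, which left *Clic5* alone past both cutoffs. Without E18.5 replicate 3, 4 of 8 genes were called, as *Ager* came to 1.16 and *Emp2* to 1.15. *Ager* also passed without E15.5 replicate 1, at 1.02.

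E18.5 replicate 3 stood apart in these genes. It was the lowest of the E18.5 libraries for 7 of 8, with a median deviation of -0.29 from the time-point mean of log2(CPM + 1), and the highest for *Rtkn2*. Its sum over the 8 genes was 354.5 CPM, against 491 and 502 CPM in replicates 1 and 2. In the same library the summed level of 10 AT2 genes was 1671 CPM, against 1993 and 2590 CPM, and that of 8 pan-epithelial genes was 812 CPM, against 935 and 922 CPM. Their part in the lower AT1 values was not tested.

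**Figure D3:**
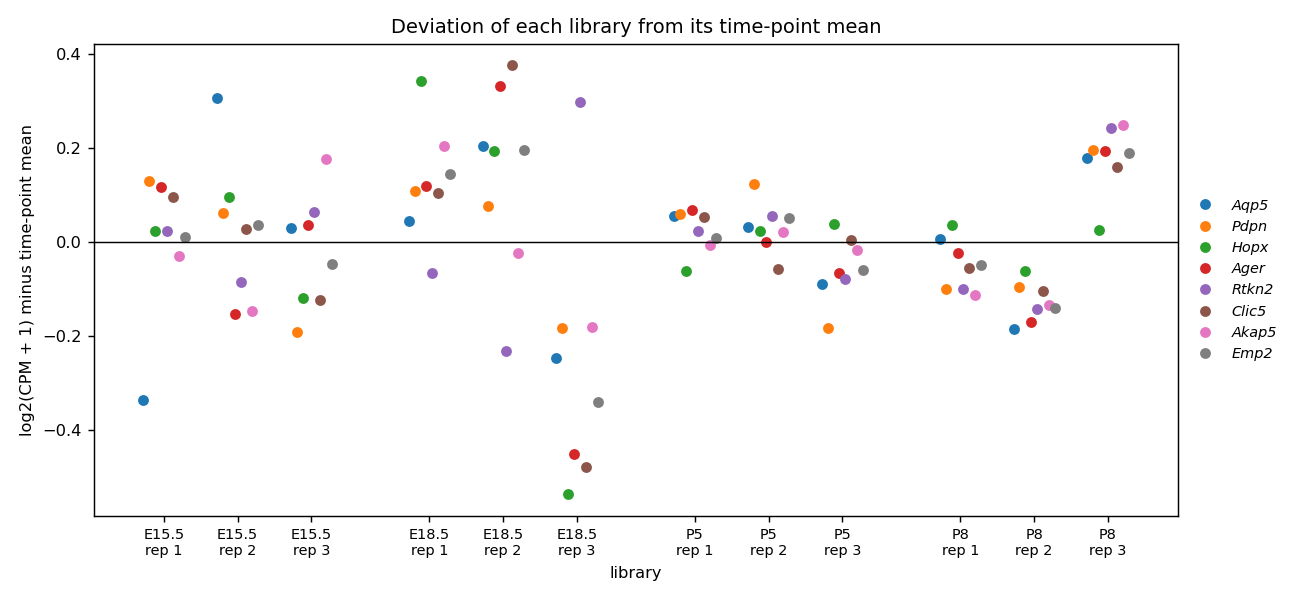
Difference between each library's log2(CPM + 1) and the mean of its time-point, with a colour for each gene and the 12 libraries along the horizontal axis. At E18.5 replicate 3, 7 of 8 genes lie below the mean (median -0.29) with *Rtkn2* above it, and at P8 replicate 3 all 8 lie above it (median 0.19).

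The second comparison spanned birth, from E18.5 to P5. All 8 genes were called higher, where 17.5% of all genes tested were. The rise was largest for *Aqp5*, with a fold of 142, and was a fold of 13.7 for *Ager*, 9.71 for *Clic5*, 8.55 for *Rtkn2* and 8.22 for *Emp2*. It was a fold of 4.93 for *Akap5* and 4.92 for *Hopx*. *Pdpn* rose least, by a fold of 2.43.

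On the log2 scale these changes were 7.15 for *Aqp5* (95% interval 6.63 to 7.68), 3.78 for *Ager* (3.38 to 4.18), 3.28 for *Clic5* (2.89 to 3.67), 3.10 for *Rtkn2* (2.79 to 3.40) and 3.04 for *Emp2* (2.74 to 3.33). They were 2.300 for *Akap5* (2.02 to 2.58), 2.298 for *Hopx* (1.91 to 2.69) and 1.28 for *Pdpn* (1.01 to 1.55), so that the intervals of *Aqp5* and *Pdpn* were separate from those of the other 6 genes. The edgeR FDR ranged from 5.3e-10 for *Aqp5* to 1.4e-06 for *Pdpn*. The median of the 8 was 3.07, against -0.0024 over all genes. Every P5 library was above every E18.5 library for 8 of 8 genes, as for 34.4% of all genes.

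When single libraries were dropped from the 12, 8 genes were called every time, and *Pdpn*, the nearest to the cutoff, lay between 1.19 and 1.38. The share over all genes is not given for these fits. As a rough measure of epithelial RNA in the lung, 8 pan-epithelial genes (*Epcam*, *Cdh1*, *Krt8*, *Krt18*, *Krt19*, *Cldn7*, *Esrp1* and *Esrp2*) were read beside them. They did not change alike over this interval, from -1.62 for *Epcam* to 0.11 for *Krt19*. The paper sorted AT1 cells as low in EpCAM, so this sum may not follow AT1 cells. Their summed level was 812 to 935 CPM before birth, at E18.5, and 529.5 to 596 CPM at P5, lower in every P5 library. With each library scaled to the counts of these genes, the 8 AT1 genes rose by 1.85 (*Pdpn*) to 7.73 (*Aqp5*) on the log2 scale while the median of all genes moved to 0.57, and relative to that median the changes were 1.29 to 7.16, which by construction lies close to the unscaled values. The part of the epithelial share in the rise was not tested.

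The last interval covered the first days of alveolar septation, from P5 to P8. None of the 8 genes was called, where 2.96% of all genes were. None was past the FDR cutoff alone, where 18.0% were, and 0 of 8 had an unadjusted p under 0.05 in edgeR. DESeq2 and limma called 0 of 8 as well, with no share over all genes given for them. The largest differences were -0.27 for *Emp2* (95% interval -0.54 to 0.00, edgeR FDR = 0.15), -0.20 for *Akap5* (-0.46 to 0.07, edgeR FDR = 0.28) and 0.18 for *Pdpn* (-0.08 to 0.44, edgeR FDR = 0.32). For *Aqp5*, *Hopx*, *Ager*, *Rtkn2* and *Clic5* the values lay between -0.17 and 0.06, and the 95% interval of each of the 8 genes left out a doubling and a halving.

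The P8 libraries differed among themselves. P8 replicate 3 was the highest for 7 of 8 genes, and P8 replicate 2 the lowest for 7 of 8. The summed level of thymus and T cell genes was 197 and 376 CPM in P8 replicates 1 and 2, and 21.0 CPM in replicate 3. Without these 2 libraries and E15.5 replicate 2, the 3 with the highest thymus sums, the P5 to P8 values of *Rtkn2*, *Clic5* and *Akap5* were 0.05, 0.06 and 0.03. P8 was then replicate 3 alone, so only the values are given. The part of thymus tissue in the P8 values was not tested. Scaled to the pan-epithelial genes, which were at 752 to 852 CPM at P8, the 8 genes differed by -0.75 to -0.29 while the median of all genes was at -0.49, and relative to that median the differences were -0.26 to 0.20, again close to the unscaled values by construction. Under that scaling every gene but *Pdpn* (edgeR FDR = 0.056) was lower past the FDR cutoff, with the lowest edgeR FDR at 1.9e-04 for *Emp2*, and none was called. The scaling lowered the median of all genes as well. The share of all genes past the FDR cutoff under it is not given, so nothing is read from this count.

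**Figure D4:**
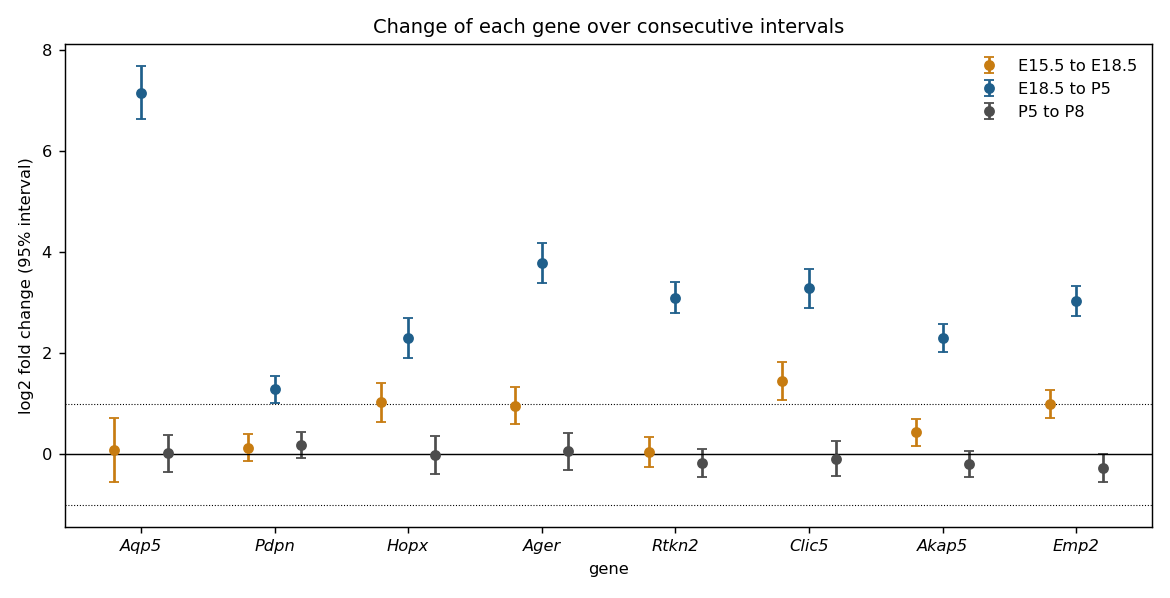
Log2 fold change of each gene over the 3 consecutive intervals, with 95% intervals from the edgeR fit and dotted lines at the cutoffs of 1 and -1. The change from E18.5 to P5 exceeds the others for every gene (1.28 to 7.15), and the change from P5 to P8 lies near 0 (-0.27 to 0.18).

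Over the whole series, from E15.5 to P8, all 8 genes were called higher, where 20.9% of all genes were. The log2 fold changes were 7.26 for *Aqp5*, 4.80 for *Ager*, 4.64 for *Clic5*, 3.76 for *Emp2*, 3.31 for *Hopx*, 2.97 for *Rtkn2*, 2.54 for *Akap5* and 1.59 for *Pdpn*, with edgeR FDR from 2.8e-10 to 1.5e-07. The part of the E15.5 to P5 rise that was present at E18.5, on the log2 scale, is given without an interval. It was 30.8% for *Hopx*, 30.7% for *Clic5*, 24.6% for *Emp2*, 20.3% for *Ager* and 16.0% for *Akap5*. It was 9.23% for *Pdpn*, 1.56% for *Rtkn2* and 1.26% for *Aqp5*, the genes that were not past the FDR cutoff before E18.5.

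Whether the intervals differed was tested in the same fit, with the E18.5 libraries shared by the first and second changes and the P5 libraries by the second and the third. The second change exceeded the first in all 8 genes (23.6% of all genes were past the FDR cutoff in that direction), by 7.06 for *Aqp5*, 3.05 for *Rtkn2*, 2.82 for *Ager*, 2.05 for *Emp2*, 1.86 for *Akap5*, 1.83 for *Clic5*, 1.27 for *Hopx* and 1.15 for *Pdpn*, and the largest edgeR FDR was 0.0049, for *Hopx*. The change from P5 to P8 was below that from E18.5 to P5 in all 8 (26.4% of all genes in that direction), by -7.13 for *Aqp5* to -1.10 for *Pdpn*, and the largest edgeR FDR was 7.8e-04, for *Pdpn*.

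A further 15 genes enriched in AT1 cells were read as a list. From E15.5 to E18.5 none was called and 8 were past the FDR cutoff upward (11.6% of all genes), with a median log2 fold change of 0.47. Over birth, 10 of the 15 passed both cutoffs upward and none downward, where 17.5% and 9.34% of all genes did, with a list median of 1.998. The strongest was *Spock2*, a secreted proteoglycan of the extracellular matrix, which went from 7.64 ± 0.599 to 321 ± 29.8 CPM (log2 fold change 5.48, edgeR FDR = 3.7e-10). *Cyp2b10*, a cytochrome P450, followed at 5.04 (edgeR FDR = 9.4e-08).

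At the other end of the list, *Cav1*, the caveolin that endothelium also carries in quantity, rose by 0.79 (edgeR FDR = 2.6e-06). *Igfbp2*, an insulin-like growth factor binding protein, fell by 0.25 (edgeR FDR = 0.041), from 211 ± 12.3 to 167 ± 8.98 CPM. It was the one gene of the 15 that fell past the FDR cutoff. From P5 to P8 *Cyp2b10* was the one gene called, at 1.38 (edgeR FDR = 0.0068), with 5.42 ± 0.142 CPM at P5 and 14.3 ± 2.74 CPM at P8. Of all genes 2.96% were called over these days, so nothing is read from the count.

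The 11 genes known to act on the AT1 fate, most of them transcription factors or Hippo pathway members, went both ways. From E18.5 to P5, 2 of the 11 passed both cutoffs upward and 1 downward. Of all genes 17.5% did the former and 9.34% the latter, so nothing is read from these counts. The median log2 fold change was -0.28. *Cebpa* rose by 1.47 (edgeR FDR = 1.6e-06), from 50.5 ± 7.36 to 132 ± 9.77 CPM, and *Tead4*, a DNA-binding partner of the Hippo pathway's co-activators, rose by 1.11 (edgeR FDR = 6.4e-06). *Foxa1*, a forkhead factor of lung epithelium, fell by 1.28 (edgeR FDR = 5.7e-08), from 73.9 ± 1.56 to 28.7 ± 2.16 CPM, and *Hdac3*, a histone deacetylase, fell by 0.65 (edgeR FDR = 5.6e-07).

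Lists of other epithelial cells were measured on the same intervals. Of 10 AT2 genes, 7 were called higher over the first interval (1.59% of all genes, median of the list 1.32). Over the second, 9 were called higher (17.5% of all genes, median of the list 4.45). *Sftpd*, surfactant protein D, was at 7.88 and *Etv5*, an ETS factor, at -0.87 over the second interval (edgeR FDR = 1.2e-10 and 3.5e-06). Of 6 distal tip progenitor genes none was called over the first interval while 5 were past the FDR cutoff downward (9.87% of all genes). From E18.5 to P5, 2 of them were called lower (9.34% of all genes), *Sox9* at -2.99 and *Mycn* at -1.11 (edgeR FDR = 1.4e-08 and 4.4e-07). In the same list *Bmp4* rose by 0.77 (edgeR FDR = 9.4e-06), and *Id2* and *Etv4* were at -0.02 and -0.05 (edgeR FDR = 0.79 and 0.67). Of the 8 pan-epithelial genes 2 were called lower from E18.5 to P5 (9.34% of all genes), *Epcam* at -1.62 and *Esrp1* at -1.28 (edgeR FDR = 1.0e-09 and 5.1e-08), while *Krt19* was at 0.11 (edgeR FDR = 0.45). Of 6 blood endothelial genes, 5 were called higher over that interval (17.5% of all genes), with *Car4* at 7.51 and *Emcn* at 0.34 (edgeR FDR = 3.2e-10 and 0.0026).

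**Figure D5:**
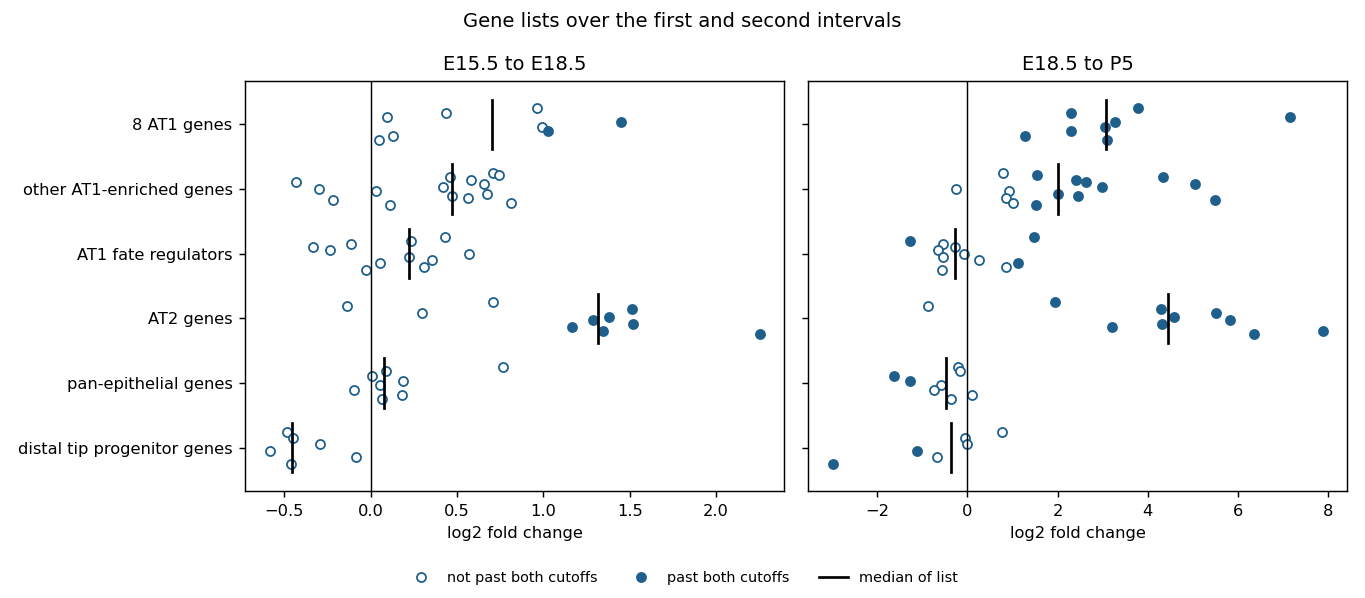
Log2 fold change of every tested gene of 6 lists over the first (left) and second (right) intervals, where filled points passed both cutoffs and vertical lines mark the list medians. From E18.5 to P5 all 8 AT1 genes are filled on the right (median 3.07), whereas the AT1 fate regulators are centred near -0.28.

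Within time-points, the deviations of the AT1 genes other than *Rtkn2* were positively correlated, weakly in some pairs and strongly in others. *Rtkn2* departed from them mainly at E18.5 replicate 3, at 0.30 against a median of -0.29. At P8 replicate 3 it lay with them, at 0.24 against a median of 0.19. Across the deviations of the 12 libraries from their time-point means, the 21 pairs of genes without *Rtkn2* had Pearson's r between 0.31 and 0.92, with the highest between *Clic5* and *Emp2*, and the 7 pairs with *Rtkn2* had r between -0.67 and 0.22, with the lowest for *Hopx*. These are descriptions over 12 deviations around 4 means, which share libraries and depth and lean on E18.5 replicate 3. No r for pairs of other genes is given beside them, so the values are not read as particular to AT1 genes. Over the levels of all 12 libraries, the 28 pairs had r between 0.948 and 0.998.

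Many other genes followed the same course. Of 10613 further genes with a mean of at least 10 CPM, 1963 had r above 0.9 with the mean standardised log2(CPM + 1) of the 8 genes over the 12 libraries, so a high r sets no gene apart. The 10 highest were *Slco2a1*, *Epas1*, *Cdkn2b*, *Sept4*, *Sftpa1*, *Agt*, *Ace*, *Kctd10*, *Gcnt2* and *Ly6a*, with r from 0.9976 to 0.9988. *Slco2a1*, a prostaglandin transporter, was at 27.3, 42.4, 295 and 303 CPM (means in the order of the time-points), and *Epas1*, which encodes a hypoxia-inducible factor, at 47.1, 78.0, 984 and 1084 CPM.

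For single genes the closest patterns were *H2-DMb1*, *Car4* and *Spns2* for *Aqp5*, *Adamts8*, *Ptpre* and *Sfxn3* for *Pdpn*, and *Dcxr*, *Smagp* and *Lmo7* for *Hopx*. They were *Ace*, *Epas1* and *Sftpa1* for *Ager*, *Ntn4*, *Car4* and *Acoxl* for *Rtkn2*, and *Smagp*, *Susd6* and *Sftpb* for *Clic5*. For *Akap5* they were *Zeb1*, *Gpihbp1* and *Sema3g*, and for *Emp2* *Aqp1*, *Tnfsf10* and *Icam2*. The lowest r among these was 0.99.

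The genes next to the 8 on the chromosome, were looked at after the values above were known. Of the 16 nearest tested neighbours, 1 on each side, 4 were called higher and 2 lower from E18.5 to P5, where 17.5% and 9.34% of all genes were, so nothing is read from these counts. *Ager* is the closest case, since *Pbx2* ends 462 bases before it and *Rnf5*, on the opposite strand, lies 155 bases beyond its end, and these decreased by 0.57 and 0.58 in log2 units (edgeR FDR = 2.7e-06 for *Pbx2* and 1.3e-04 for *Rnf5*) whereas *Ager* rose by 3.78. *Hopx* shares 412 exon bases with *Hopxos* and *Rtkn2* shares 216 with *Gm16212*, both on the opposite strand, and the counts cannot be split between partners unless strand was used. *Hopxos* was at 0.0824 to 0.537 CPM and *Gm16212* at 0 to 0.0205 CPM (time-point means), far below the genes they overlap.

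Promoter sequence was read for 7 of the 8 genes, 8 windows in all since *Hopx* has 2 listed starts, each from 250 bases before to 50 bases after a RefSeq start on GRCm38.p6. Letters bound by factors known in AT1 cells were searched on both strands, as GGAATG for TEAD factors, CAAGTG for NKX2-1, TGTTTNC for FOXA factors and AGATAA for GATA factors. GGAATG and AGATAA were in none of the 8 windows, and are in 14.7% and 11.2% of all 32851 promoters. CAAGTG was in 1 window, as in 13.6% of all promoters, and TGTTTNC in 1, as in 20.5%. The matches are shown because they are the only ones found, written 5′ to 3′ on the strand of the gene, with the matched letters in capitals.
Hopx: atctccggaggcagCACTTGaggcgcttcc
Pdpn: taaatcagaacTGTTTACtgcacgtggccc
The *Hopx* bases lie at chr5:77095218-77095247 (- strand), where the match is the reverse complement of CAAGTG and begins 34 bases after the start. The *Pdpn* bases lie at chr4:143299699-143299728 (- strand), with the match 153 bases before the start. A match of letters is a description of the sequence and not a binding site.

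In base composition these windows ranged widely. GC content was 79.7% for *Aqp5*, 70.7% for *Akap5* and 65.7% for *Emp2*, where the median over all promoters is 52.7%, and *Aqp5* held 46 CpG dinucleotides, against a median of 7. It was 48.7% for *Pdpn*, 54.3% for *Clic5*, 58.3% for *Ager* and 53.0% and 59.0% for the 2 *Hopx* starts. *Aqp5* and *Pdpn*, the genes with the largest and smallest rise, were also at the ends of the range in GC content, which with 8 windows is only a description. The genes between them did not keep that order. *Akap5*, at 70.7%, rose by 2.30 on the log2 scale from E18.5 to P5, and *Ager*, at 58.3%, by 3.78.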

How the data were processed

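RNA of 12 whole-lung libraries was sequenced by the authors, who per the labels aligned reads to mm10 with TopHat2 2.1.1 and Bowtie2 2.3.4 and counted them on Gencode genes with HTSeq 0.10.0. They deposited raw counts of 16152 genes and CPM values of 51825 genes, in which a count is divided by the mapped reads of the library (48436716 to 62279460). Whether counting used strand is not given in the sources used here. Splicing tables were not used. Counts were fitted here with edgeR 4.0.16 (quasi-likelihood, TMM, at least 1 CPM in at least 3 libraries, 15994 genes, R 4.3.3), and tested on simulated data first. Alternatives used DESeq2 1.42.0 and limma 3.58.1, the latter on log2(CPM + 1) and log2(CPM + 0.1). CPM steps gave whole reads (within 0.02 reads) for 100.0% of values. Symbols matched 16136 of the identifiers, and positions and exon lengths come from Gencode vM21. The 8 genes and all gene lists were chosen with earlier results of these data known. Where the text gives changes of single list genes, these are up to 2 with the highest and 2 with the lowest change from E18.5 to P5, and *Etv4*. Single genes of the airway, cardiac muscle, skeletal muscle and thymus lists are not described. Groups come from the age in the labels, and nothing beyond the litter says how replicates were separated. A p-value here sets a difference between time-points against the spread within a litter, and does not cover the spread between litters.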

Additional observations from a re-analysis of the deposited data

How the results depend on the processing

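Over birth and over the whole series (E15.5 to P8), all 8 genes were called higher under every alternative run (DESeq2, limma with 2 offsets, library size only, pan-epithelial scaling, no filter, the compared time-points alone, FDR alone, reads recovered from CPM, and each library left out). With pan-epithelial scaling 31.1% of all genes were called higher over birth and 19.1% over the whole series, against 17.5% and 20.9% in the main fit. For the other alternatives no share over all genes is given here. All differences between consecutive changes kept their sign and their side of the cutoff under the alternatives run for them, which were only library size only and each library left out. From E15.5 to E18.5, where 2 genes were called, the count was 5 by FDR alone (11.6% of all genes) and 1 with pan-epithelial scaling (1.21%). It was 1 with limma at either offset and 1 to 4 with single libraries left out, for which no share over all genes is given. *Emp2* (0.99) sat at the cutoff and was past it in 11 alternatives, with 1.003 in DESeq2. Values that were near 0 in the main fit changed sign. From E15.5 to E18.5, pan-epithelial scaling gave -0.12 for *Aqp5*, -0.076 for *Pdpn* and -0.13 for *Rtkn2*, and single libraries left out gave -0.21 to 0.42 for *Aqp5* and -0.12 to 0.17 for *Rtkn2*. From P5 to P8, pan-epithelial scaling gave -0.46 for *Aqp5* (edgeR FDR = 0.029), -0.29 for *Pdpn* (edgeR FDR = 0.056) and -0.42 for *Ager* (edgeR FDR = 0.020). The median of all genes under that scaling was at -0.49. Single libraries left out gave -0.083 to 0.11 for *Aqp5*, -0.064 to 0.024 for *Hopx* and -0.055 to 0.14 for *Ager*. *Hopx* was also at 0.000567 with library size only, 0.00179 and 0.00180 in limma, and 0.000221 without the 3 libraries highest in thymus genes, which leaves P8 with 1 library and is given as values only, where *Rtkn2* was at 0.053, *Clic5* at 0.059 and *Akap5* at 0.034. This last alternative and the recovered reads were chosen after seeing the data. The cause of these changes was not tested. With the replicate block, 2, 8 and 0 genes were called over the consecutive intervals and 8 over the whole series, as without it. The numbers did not pair the samples, since same-numbered deviations had r from -0.34 to 0.30 and 4 of 12 libraries were closest to their own number.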
